A study of Mus musculus with 5 samples.

Results

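The 10 genes described here belong to the programme of the stomach and intestine: Gkn1, Gkn2, Gkn3, Tff1, Tff2, Tff3, Reg4, Hnf4a, Lgals4 and Ctse. They were chosen by name, with earlier results of these data known, and not by a cut on the values below. They are listed as gastrointestinal genes that NKX2-1 opposes, which these data do not test. Peaks of NKX2-1 whose summit lay inside a gene or within 50 kb of either gene end (RefSeq genes, mm10) were collected from 4 antibody libraries, and peaks that overlapped by at least 1 bp were merged into regions. This gave 49 regions for the 10 genes, of 68919 in the genome, and 10 genes of 21627 protein-coding genes. A region is described by how many antibodies called it, so that a region of 4 antibodies was called in every library.

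NKX2-1 was mapped by chromatin immunoprecipitation and sequencing (ChIP-seq) in the whole lung of mice of wild-type genotype, taken at postnatal day 10. The 4 antibodies against NKX2-1 were Abcam133737, Millipore07-601, Abcam76013 and Abcam133638, with 1 library each and 1 input library for all of them. Each antibody library held 43031331 to 46547989 tags after duplicates were removed, and the input 10653749. There was no mutant or second age in the series, the protocol describes the pooling of sonicated chromatin, and nothing in the labels ties a library to an animal of its own. Every value below is therefore a value of 1 library, differences between antibodies have no replicate check, and no p-value is given. Whole lung mixes epithelium with other cells, so that the cell type in which a region was bound cannot be told from these libraries.

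NKX2-1 is a homeodomain transcription factor that the lung and the thyroid share, and in lung epithelium it acts on genes of surfactant-making alveolar type 2 (AT2) cells and of flat, gas-exchanging alveolar type 1 (AT1) cells. Lung and stomach both arise from foregut endoderm. Lung epithelial cells and lung tumours that lose NKX2-1 are known to switch on genes of the stomach and intestine, and HNF4A, a nuclear receptor of the gut and liver, takes part in that switch in tumours. Whether NKX2-1 sits at these genes in normal lung is the question the peaks address. A peak shows where the protein was recovered, and not whether a gene was raised or lowered there.

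Most of the 10 genes had NKX2-1 in their neighbourhood, and only Reg4 and Gkn3 had it on the gene itself. Of the 10 genes, 7 had a region of 4 antibodies inside or within 50 kb, beside 74.6% of all protein-coding genes, and 4 had one inside or within 10 kb (Reg4, Gkn2, Gkn3 and Lgals4), beside 58.6%. Within 10 kb, Gkn2 and Gkn3 were counted through the same region, and the regions of Lgals4 were nearest to Ech1. Counting peaks of any antibody, 9 genes had a region within 50 kb, beside 82.6% of all genes, and the exception was Tff3. A summit of any antibody lay inside 2 of the 10, Reg4 and Gkn3, beside 55.5% of all genes. A region of 4 antibodies lay inside 1 of the 10, Reg4, beside 39.3%. Within 50 kb the share of the genes was thus near that of all genes, and inside the genes, before gene length is taken into account, it was lower.

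Among the 49 regions, 24 were called with 4 antibodies (49.0%, beside 45.9% of all regions), 9 with 3, 5 with 2 and 11 with 1. The mean fold enrichment of a region is the mean over the antibodies of the fold over local background that the authors' peak caller gave. It ranged from 4.86 to 16.1 in the 24 regions, with a median of 7.34, beside a median of 7.14 over all 31606 regions of 4 antibodies. Of the 24, 13 lay above that median. For 10 of the 49 regions, and for 4 of the 24, the nearest protein-coding gene was 1 of the 10. The other regions were nearer to a neighbour. The map of the 6 loci shows how the regions fall beside the genes.

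**Figure D1:**
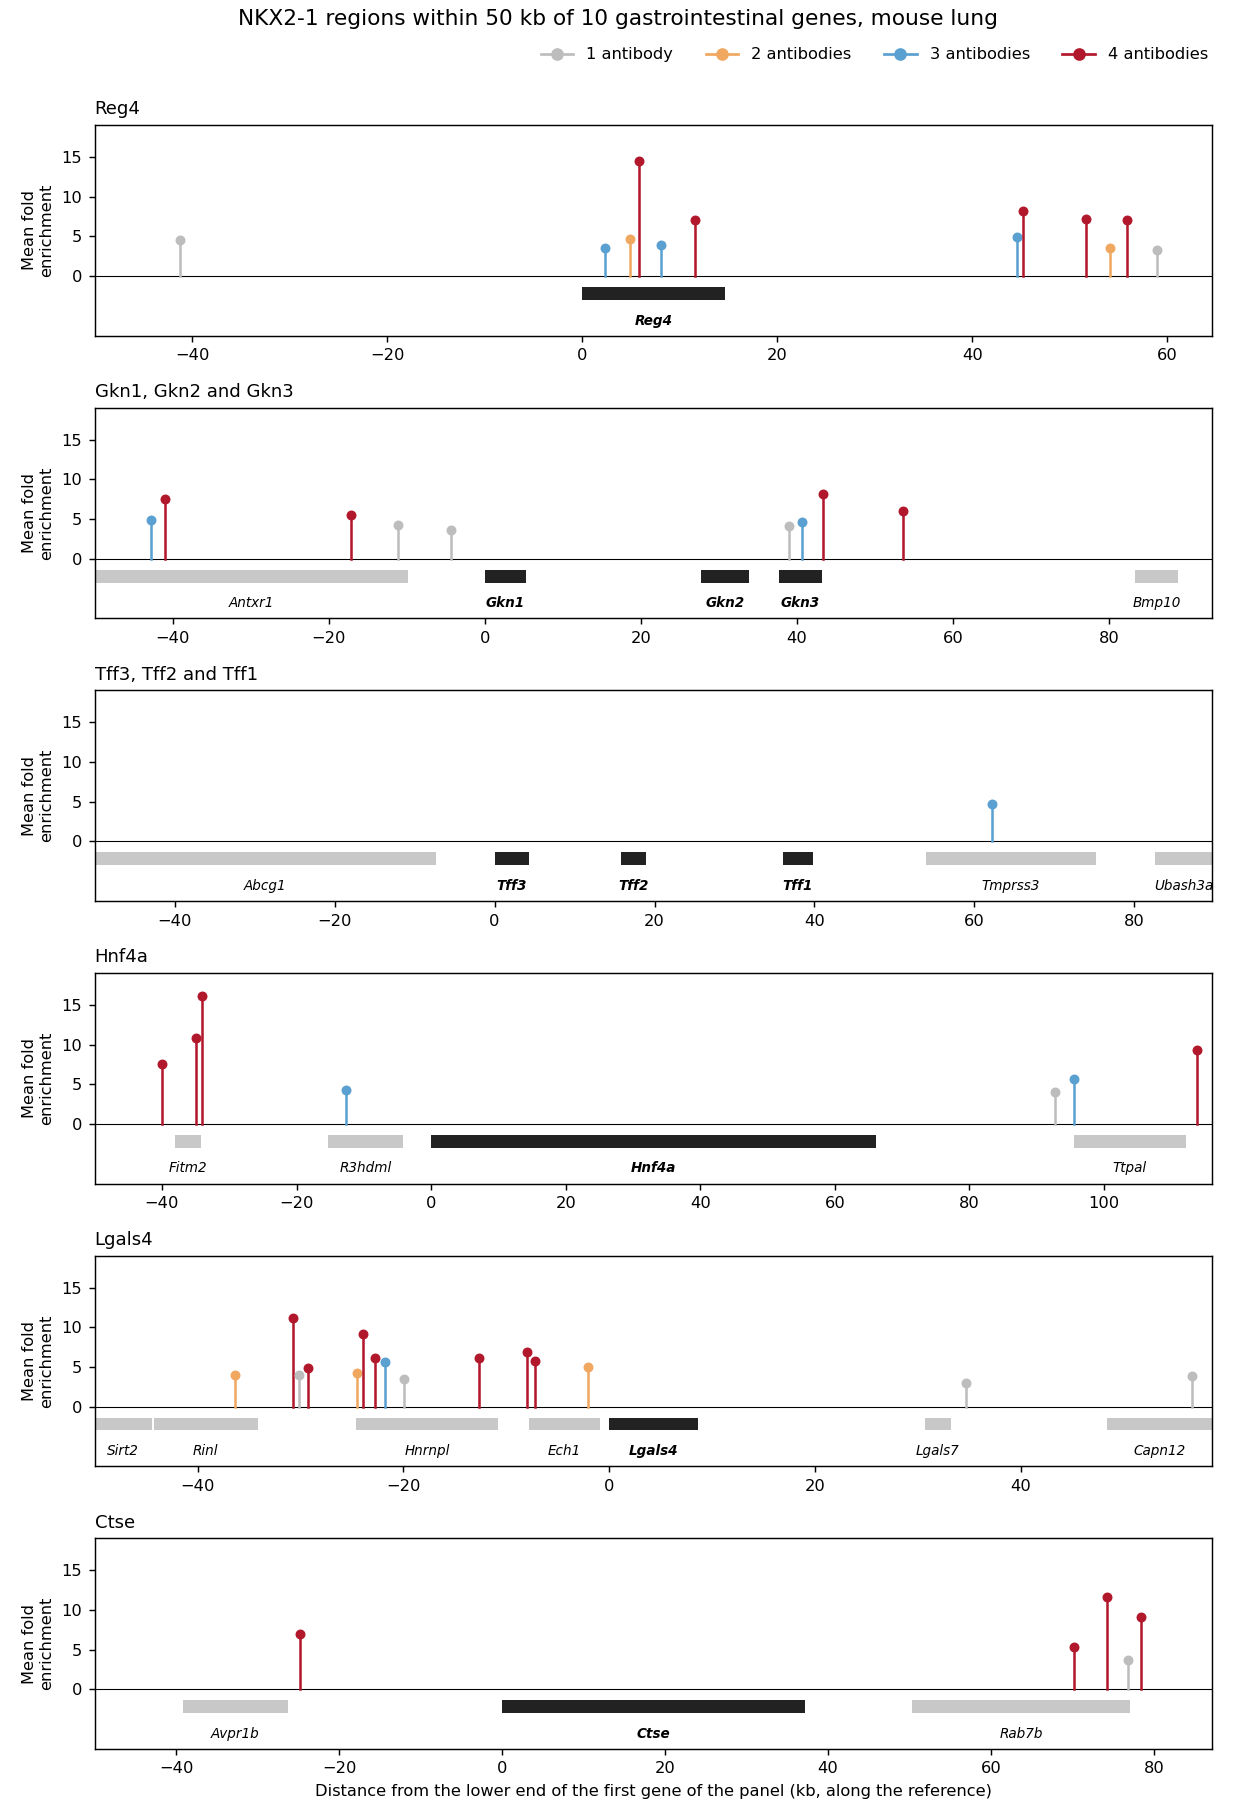
NKX2-1 regions at the 6 loci of the 10 genes, with 1 panel per locus. The horizontal axis gives the distance in kb from the lower end of the first gene of the panel, each stem is a region at its mean summit, its height is the mean fold enrichment, and its colour the number of antibodies; black bars are the 10 genes and grey bars protein-coding neighbours, which are not drawn for Reg4. Stems stand on the gene body in Reg4 and Gkn3, and beside it at the other genes.

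Reg4 encodes a secreted C-type lectin of the regenerating islet-derived family, made by enteroendocrine and goblet cells of the gut. It had more regions inside the gene than any other of the 10, and 12 regions inside or within 50 kb, 5 of them of 4 antibodies. The gene spans 14.6 kb (chromosome 3, 98222138 to 98236748), and 5 regions lay inside it, 2 of them of 4 antibodies. Of 2551 genes of like length (0.8 to 1.25 times that of Reg4), 2.74% had 5 or more regions inside, and their median was 1.

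The strongest region at Reg4 lay inside the gene, at chr3:98227753-98228140. Its summit held 60 tags with Abcam133737 (exact Poisson 95% interval 45.8 to 77.2, which covers counting error only), 96 with Millipore07-601 (77.8 to 117), 50 with Abcam76013 (37.1 to 65.9) and 67 with Abcam133638 (51.9 to 85.1). Millipore07-601 was the highest of the 4, and its interval lay above those of Abcam133737 and Abcam76013. The folds were 12.6, 20.5, 10.4 and 14.7 in the same order, with a mean of 14.5, and 11.4% of all regions of 4 antibodies were as strong. Within each list, its fold stood at the 92.1st, 95.5th, 87.2nd and 91.7th percentile.

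The second region of 4 antibodies inside Reg4, at chr3:98233420-98233870, held 29 tags with Abcam133737, 52 with Millipore07-601, 26 with Abcam76013 and 36 with Abcam133638. The order of the antibodies was that of the first region, at lower levels, and the mean fold was 7.06. The 3 other regions inside the gene were weaker and were called with 3, 2 and 3 antibodies (chr3:98224298-98224574, chr3:98226956-98227249 and chr3:98230055-98230327), at mean folds of 3.60, 4.70 and 3.86.

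None of the regions of Reg4 lay on its start site. The nearest summit was 2.25 kb away in a region of 3 antibodies, and the nearest summit of 4 antibodies 5.78 kb away, further into the gene. The 250 bases before the start site (RefSeq, GRCm38.p6, chr3:98221906-98222155, plus strand) are shown because they are the promoter of the gene with the most regions inside it and lie outside all of those regions. Capitals mark a hexamer of the NKX2 family, CTCAAG or CAAGTG, on either strand.
Reg4: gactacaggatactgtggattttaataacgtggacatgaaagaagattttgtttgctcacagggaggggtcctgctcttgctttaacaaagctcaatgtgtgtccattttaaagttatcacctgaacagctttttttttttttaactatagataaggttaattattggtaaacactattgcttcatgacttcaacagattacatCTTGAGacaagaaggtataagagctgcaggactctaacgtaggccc
The capitals begin 46 bases before the start, and a second CTCAAG begins 1 base past the start site, beyond the printed stretch. The forkhead word TGTTTNC, searched on both strands, occurred 201 and 83 bases before the start.

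Beyond the other end of Reg4, 6 further regions lay 29.9 to 44.3 kb away, and 3 of them were of 4 antibodies, at mean folds of 8.26, 7.21 and 7.07. At the first of these, 30.6 kb from the gene, the summit tags were 48 with Abcam133737, 63 with Millipore07-601, 53 with Abcam76013 and 63 with Abcam133638, while the folds were 9.13, 7.05, 10.1 and 6.80. The antibodies with more tags had the lower folds there, and their local background was 8.08 and 8.41 tags, against 4.37 and 4.36 for the other pair. These backgrounds are worked back from fold and pileup, and all 4 libraries were called against the same input. That input, of 10653749 tags, was scaled up, so a gap of this size can rest on very few input tags. Before the start of Reg4 there was 1 region within 50 kb, of Abcam133638 alone (41.3 kb, nearest to Adam30).

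The 3 gastrokines are small secreted proteins of the stomach lining, made by surface mucous cells in the case of Gkn1 and Gkn2. Their genes lie side by side on chromosome 6, Gkn1 at 87345653 to 87350915 (minus strand), Gkn2 at 87373365 to 87379494 (plus strand) and Gkn3 at 87383319 to 87388935 (minus strand). NKX2-1 lay at the start site of Gkn3 and was not called on Gkn1 or Gkn2. Within 50 kb, Gkn1 had 9 regions (4 of 4 antibodies), Gkn2 7 (3 of 4) and Gkn3 6 (2 of 4), many of them the same regions, since the windows overlap.

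The region at the start of Gkn3 (chr6:87388883-87389210) held 29 tags at the summit with Abcam133737 (interval 19.4 to 41.6), 46 with Millipore07-601 (33.7 to 61.4), 29 with Abcam76013 (19.4 to 41.6) and 47 with Abcam133638 (34.5 to 62.5). Abcam133737 and Abcam76013 were lower than the other pair, and all 4 intervals overlapped. The folds were 6.18, 9.94, 6.09 and 10.3 in the same order, with a mean of 8.14, and 39.4% of all regions of 4 antibodies were as strong. The region covered all 300 bases of the RefSeq promoter window of Gkn3, which runs from 250 bases before the start to 50 after it. Its 4 summits lay 91 to 118 bases before the start, 101 on average.

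The RefSeq promoter windows available here numbered 7, for 6 of the 10 genes (2 of Hnf4a and 1 each of Gkn1, Gkn2, Gkn3, Reg4 and Lgals4). That of Gkn3 was the only one of them with a summit. No window was available for Tff1, Tff2, Tff3 and Ctse, so the sequence of their promoters was not searched. Over all 32619 promoter windows, 18.4% held a summit of a region of 4 antibodies. The 250 bases before the start of each gastrokine gene are shown in the direction of the gene, so that the bound promoter can be read beside its unbound neighbours, with the same capitals as above (Gkn1 chr6:87350916-87351165, minus strand; Gkn2 chr6:87373115-87373364, plus strand; Gkn3 chr6:87388936-87389185, minus strand).
Gkn3: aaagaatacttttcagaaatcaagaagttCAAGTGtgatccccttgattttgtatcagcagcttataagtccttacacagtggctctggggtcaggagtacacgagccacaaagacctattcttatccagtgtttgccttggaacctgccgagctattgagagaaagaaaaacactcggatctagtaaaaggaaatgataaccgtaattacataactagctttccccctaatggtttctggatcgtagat
Gkn1: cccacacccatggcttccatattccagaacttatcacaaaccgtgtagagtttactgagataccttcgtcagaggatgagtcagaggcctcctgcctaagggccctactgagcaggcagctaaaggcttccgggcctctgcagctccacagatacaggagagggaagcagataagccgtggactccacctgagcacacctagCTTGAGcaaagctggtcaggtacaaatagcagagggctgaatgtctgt
Gkn2: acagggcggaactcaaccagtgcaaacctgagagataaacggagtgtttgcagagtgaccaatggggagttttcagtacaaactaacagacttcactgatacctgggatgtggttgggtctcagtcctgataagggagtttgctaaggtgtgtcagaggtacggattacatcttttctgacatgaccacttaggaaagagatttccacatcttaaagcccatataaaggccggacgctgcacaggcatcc
Gkn3 had the NKX2 word CAAGTG 221 bases before the start, more than 100 bp from the mean summit. It also had the forkhead word TGTTTNC 120 bases before the start, within 100 bp of the mean summit. Gkn1 had the other NKX2 word, CTCAAG, 48 bases before the start, and no summit. Gkn2 had neither NKX2 word, and TGTTTNC 206 bases before the start.

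These words are common. On either strand, CAAGTG occurred in 13.5% of all promoter windows, in 11.9% of the 5999 with a summit of a region of 4 antibodies and in 14.4% of those without any summit. For CTCAAG the shares were 15.7%, 17.9% and 15.7%, and for TGTTTNC 20.6%, 15.2% and 23.0%. The HNF4 word CAAAGTCCA, the nuclear factor I half-site TTGGCA and the TEAD word CATTCC were in none of the 7 windows, and in 0.478%, 14.1% and 14.6% of all windows. A match describes letters in a window and is not evidence of a bound site.

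Inside Gkn3 there were 2 weaker regions. At chr6:87386263-87386496 a peak was called with 3 antibodies, at folds of 5.08 with Millipore07-601, 3.25 with Abcam76013 and 5.39 with Abcam133638, and at chr6:87384472-87384715 with Abcam133638 alone, at 4.14. Of 1685 genes of like length, 15.0% had 2 or more regions inside. Beyond the start site, 10.4 kb away, a further region of 4 antibodies (chr6:87399245-87399478) held 27 tags with Abcam133737, 32 with Millipore07-601, 26 with Abcam76013 and 25 with Abcam133638, at a mean fold of 5.96.

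Gkn1 and Gkn2 stood together in a stretch of 43.1 kb without a peak of any antibody (87341382 to 87384471). Of all protein-coding genes, 30.8% lay in a stretch at least as long. The region nearest to Gkn2 was that of Abcam133638 alone inside Gkn3, 5.12 kb away, and the nearest of 4 antibodies was the start-site region of Gkn3, 9.53 kb away. For Gkn1 the nearest was a peak of Abcam133638 alone at 4.38 kb (fold 3.66). The nearest of 4 antibodies lay 17.1 kb away inside Antxr1, which encodes an anthrax toxin receptor (chr6:87328347-87328799, mean fold 5.46). A stronger region inside Antxr1 (chr6:87277198-87277965, folds 20.8 to 29.2, mean 25.1) lay 68.0 kb from Gkn1, outside the window.

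The trefoil factors Tff1, Tff2 and Tff3 are small secreted peptides that protect and help to repair the mucous lining, Tff1 and Tff2 mainly in the stomach and Tff3 in goblet cells of the intestine. They were the genes with the least NKX2-1. All 3 lie on chromosome 17 (Tff3 at 31125306 to 31129611, Tff2 at 31141062 to 31144282, Tff1 at 31161395 to 31165060) in 1 stretch of 114 kb without any peak, from 31073540 to 31187435. Of all genes, 23.7% lay in a stretch at least as long.

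The only region of the trefoil window lay inside Tmprss3, which encodes a membrane serine protease (chr17:31187436-31187703), 22.5 kb from Tff1 and 43.3 kb from Tff2. It was called with 23 tags at the summit for Millipore07-601 (fold 4.76), 25 for Abcam76013 (fold 4.85) and 22 for Abcam133638 (fold 4.42), and not with Abcam133737. All 3 peaks lay below the median fold of their lists, which was 5.28 to 5.92. Tff3 had no region within 50 kb, and its nearest peak, of Abcam133638 alone (fold 4.23), lay 51.9 kb away.

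Lgals4 encodes galectin-4, a lectin of the intestinal epithelium that binds galactose-containing sugars. With 15 regions, 7 of them of 4 antibodies, it had the most regions of the 10 genes, and none inside the gene (chromosome 7, 28833122 to 28841710). Of all genes, 16.8% had 7 or more regions of 4 antibodies within 50 kb. On the lower side of the gene lay 13 of the 15, among the genes Ech1, Hnrnpl and Rinl, and the 2 on the other side were of Abcam133638 alone, near Lgals7 and inside Capn12.

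The region nearest to Lgals4 was of 2 antibodies, 2.06 kb away inside Ech1, which encodes an enzyme of fatty acid breakdown. The nearest of 4 antibodies was 7.16 kb away, also inside Ech1 (chr7:28825764-28826144), with 26 tags at the summit in the Abcam133737 library, 33 with Millipore07-601, 25 with Abcam76013 and 31 with Abcam133638, at a mean fold of 5.69. Next to it, a region of mean fold 6.90 had its summits in the promoter window of Ech1 itself (chr7:28824971-28825337). The promoter window of Lgals4 held no summit, and the nearest of any antibody was 2.73 kb from its start site.

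The strongest region of the Lgals4 window lay 30.7 kb away near Rinl (chr7:28802186-28802786). Its summit held 36 tags with Abcam133737, 70 with Millipore07-601, 53 with Abcam76013 and 50 with Abcam133638, at folds of 7.62, 15.0, 11.0 and 11.0. Abcam133737 was lowest and Millipore07-601 highest. The mean fold was 11.1, and 21.2% of all regions of 4 antibodies were as strong. Inside Hnrnpl, which encodes an RNA-binding splicing factor, lay 3 of the 7 regions of 4 antibodies, at mean folds of 9.15, 6.12 and 6.14.

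Ctse encodes cathepsin E, an aspartic protease of gastric surface cells that immune cells also make. It spans 37.2 kb (chromosome 1, 131638314 to 131675507) and had 5 regions within 50 kb, 4 of them of 4 antibodies, and none inside. Of 2297 genes of like length, 27.8% had no summit inside. Around the gene, 94.7 kb held no peak (131613706 to 131708442), and 25.0% of all genes lay in a stretch at least as long.

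The region nearest to Ctse lay 24.7 kb away, near Avpr1b, the vasopressin receptor 1B gene (chr1:131613427-131613705). It held 23 tags with Abcam133737, 35 with Millipore07-601, 31 with Abcam76013 and 40 with Abcam133638, at a mean fold of 6.97. On the other side, 37.1 kb away, the strongest lay inside Rab7b, which encodes a small GTPase of endosomal transport (chr1:131712354-131712805). It held 53 tags with Abcam133737, 64 with Millipore07-601, 41 with Abcam76013 and 59 with Abcam133638, at a mean fold of 11.6, and 19.5% of all regions of 4 antibodies were as strong. A pair of further regions of 4 antibodies at mean folds of 5.29 and 9.06, and 1 of Abcam133638 alone, were also nearest to Rab7b. At 88.5 kb from Ctse, outside the window, lay a region in Slc26a9 (chr1:131763872-131765115) with a mean fold of 51.0.

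Hnf4a encodes the regulator among the 10, the nuclear receptor HNF4A. It is the longest of them at 66.1 kb (chromosome 2, 163506811 to 163572907), and no peak of any antibody lay inside it. Of 1657 genes of like length, 20.9% had none inside, and their median was 2 regions. The stretch without peaks around it ran over 105 kb, from 163494376 to 163599403, and 24.3% of all genes lay in one at least as long. Neither of its promoter windows (start sites 163506857 and 163547155) held a summit, and the nearest summits were 12.6 and 52.3 kb away.

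The strongest region of the 10 windows was nevertheless in that of Hnf4a. It lay 34.1 kb from the gene, at the start of Fitm2, which encodes a protein of lipid droplet formation (chr2:163472281-163472929), with its summits in the promoter window of Fitm2 and in 2310001K24Rik, a long noncoding RNA that starts beside it. It held 63 tags at the summit with Abcam133737 (interval 48.4 to 80.6), 80 with Millipore07-601 (63.4 to 99.6), 61 with Abcam76013 (46.7 to 78.4) and 98 with Abcam133638 (79.6 to 119). Abcam133638 was highest, and its interval lay above that of Abcam76013. The folds were 13.2, 17.1, 12.6 and 21.3 in the same order, with a mean of 16.1, and 8.78% of all regions of 4 antibodies were as strong.

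The other regions of the Hnf4a window included a pair nearest to Fitm2 at mean folds of 10.8 (34.9 kb) and 7.59 (39.9 kb), and 1 near Ttpal at 9.34 (47.6 kb), all of 4 antibodies. The nearest to Hnf4a was of 3 antibodies, 12.5 kb away (chr2:163494150-163494375). It held 18 tags with Abcam133737, 21 with Millipore07-601 and 19 with Abcam133638, and lay inside R3hdml and in Hnf4aos, the antisense RNA of Hnf4a. The lowest pileup that was called was 12 to 13 tags in the 4 lists.

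**Figure D2:**
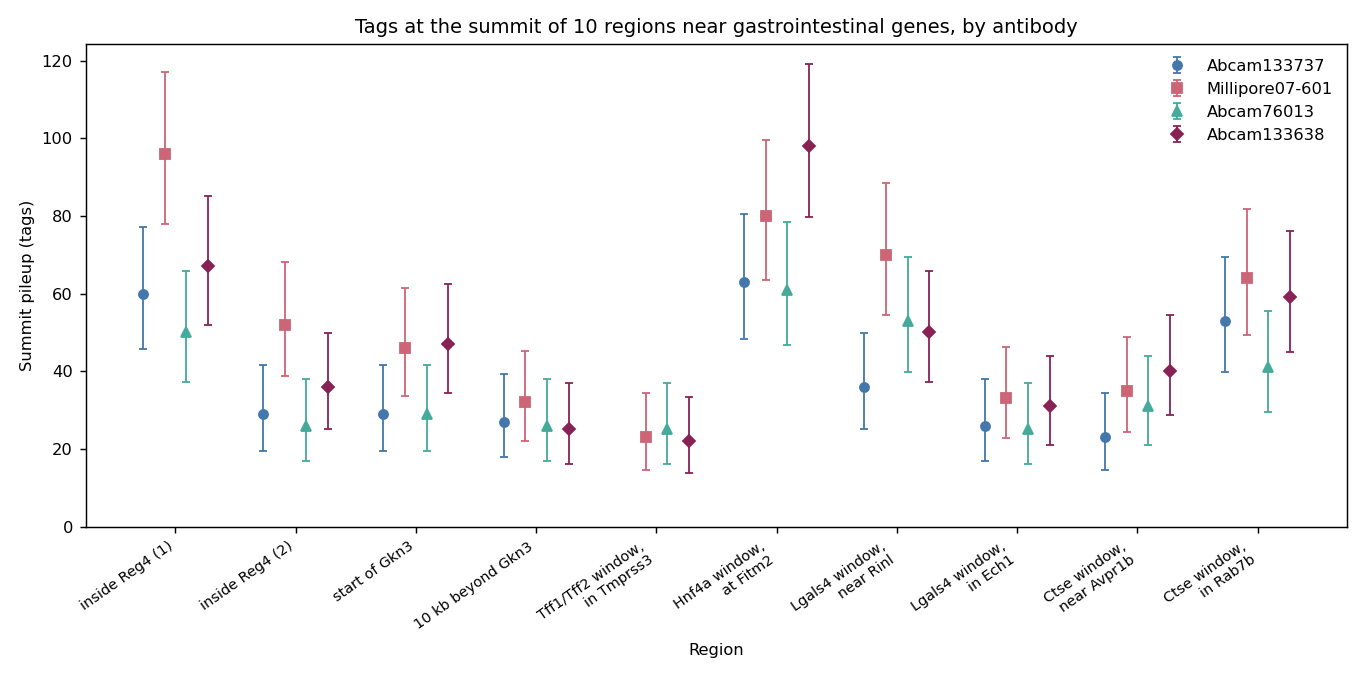
Tags at the summit (vertical axis, linear) of 10 regions near the gastrointestinal genes (horizontal axis), with 1 point per antibody library and the exact Poisson 95% interval as the bar, which covers counting error only. The first region inside Reg4 and that at Fitm2 in the Hnf4a window reach 96 and 98 tags, the region at the start of Gkn3 29 to 47, and the region in Tmprss3 has no point for Abcam133737.

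At each of the 24 regions of 4 antibodies, Millipore07-601 or Abcam133638 was the highest. In 18 of the 24 regions of 4 antibodies Millipore07-601 gave the most summit tags after scaling to library size (tags per 1000000 filtered tags), and in 6 Abcam133638 did, beside 65.5% and 31.6% of all regions of 4 antibodies. The median of this scaled value in the 24 regions was 1.03 with Millipore07-601, 0.893 with Abcam133638, 0.678 with Abcam76013 and 0.655 with Abcam133737, beside 0.976, 0.916, 0.667 and 0.666 over all regions of 4 antibodies. The levels near the 10 genes were thus close to those of the genome.

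Abcam133638 had a peak in 98.0% of the 49 regions, beside 82.3% of all regions, while Millipore07-601 had one in 75.5%, beside 82.3%. Abcam76013 had one in 63.3% (58.0% of all regions) and Abcam133737 in 57.1% (57.3%). Of the 11 regions of a single antibody, 10 were of Abcam133638 and 1 of Abcam76013, whereas over the genome 43.5% of such regions were of Abcam133638 and 44.4% of Millipore07-601. Those 11 include the nearest peaks of Gkn1 and Gkn2. In the 9 regions of 3 antibodies the one without a peak was Abcam133737 in 5 and Abcam76013 in 4. The libraries share an input, and several regions share a window, so these counts are a description.

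Longer genes more often hold a summit, and several of the 10 genes are short. Of genes of like length, the share without any summit inside ran from 69.3% for Tff2 (3.22 kb) to 20.9% for Hnf4a. Summed over the 10 genes these shares come to 5.22 genes, and 8 had no summit inside. The 8 are not independent, since Tff1, Tff2 and Tff3 share a stretch without peaks and Gkn1 and Gkn2 share another. The plot against gene length shows each gene with its own background.

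**Figure D3:**
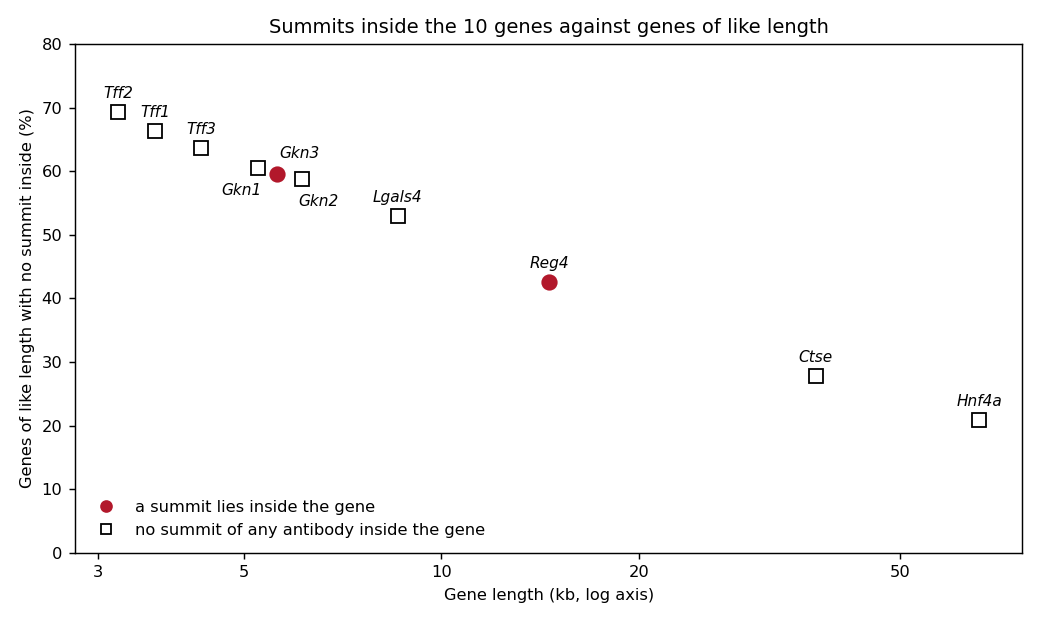
Share of protein-coding genes of like length (0.8 to 1.25 times) that have no NKX2-1 summit inside (vertical axis, %) against the length of each of the 10 genes (horizontal axis, kb, log scale). Filled circles are the genes with a summit inside, Reg4 and Gkn3, and open squares the 8 without; the share falls from 69.3% at Tff2 to 20.9% at Hnf4a.

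A wider list of 37 gastrointestinal genes was chosen like the 10 with earlier results of these data known. It had a region of 4 antibodies within 50 kb at 23 genes (62.2%, beside 74.6% of all genes). Within 10 kb there was one at 9 (24.3%, beside 58.6%), and inside at 4 (beside 39.3%). Among 11 stomach genes the counts were 10, 4 and 2, among 16 intestinal genes 7, 1 and 0, and among 10 regulators of gut epithelium 6, 4 and 2. The shares of all genes beside them are the same 74.6%, 58.6% and 39.3%. A peak of any antibody lay within 50 kb of 31 of the 37 genes, beside 82.6% of all genes. At Anxa10, Fabp1, Reg3b, Reg3g, Hnf4g and Nr5a2 no antibody gave one.

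The strongest regions of the stomach and intestinal lists mostly lay nearer to another gene. The highest mean fold of the stomach list, 28.9, was 18.3 kb from Atp4a, the catalytic subunit of the gastric proton pump, and nearest to Gapdhs and Sbsn. That of Gast, the gastrin gene, was 25.2 and nearest to Eif1. That of Capn8, a stomach calpain, was 26.3 at 45.3 kb from the gene and was nearest to Capn8. Of the intestinal list, Krt20 had 19.9 (nearest to Krt23), Fabp2 18.5 and Cdh17 11.7, all at more than 20 kb from the gene.

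Of the 10 regulators of the wider list, 4 held a summit inside the gene, beside 55.5% of all genes. Gata4, a zinc finger factor of foregut and heart, had 13 regions, 5 inside, and its strongest, of mean fold 14.6, lay inside the gene. Sox21 had 1 region of 4 antibodies, 0.095 kb from the gene, at a mean fold of 9.44. Hnf4g, the closest relative of Hnf4a, had none.

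Genes of the lung's own programme had more and stronger regions in the same libraries. All 10 genes of a surfactant and AT2 list and all 10 of an AT1 list had a region of 4 antibodies within 50 kb and within 10 kb. Of all genes, 74.6% and 58.6% had one. Inside the gene it was 8 and 10, beside 39.3%. The lists differ in median gene length, which was 13.7 kb for AT2, 27.3 kb for AT1, 29.9 kb for thyroid and 5.87 kb for the 10 gastrointestinal genes. No count here is adjusted for length. The median number of regions of 4 antibodies within 50 kb was 12 for the AT2 list, 9.5 for the AT1 list, 3.5 for the 10 gastrointestinal genes, 3.5 for a thyroid list, and 2 for the wider list and for all genes. The median of the strongest mean fold, over the genes that had a region of 4 antibodies within 50 kb, was 25.1 and 26.9 for AT2 and AT1 (10 genes each), 13.1 for the thyroid list (8 genes), 8.85 for the wider list (23) and 11.3 for all genes (16139). It was 11.1 for 7 of the 10 genes, where the start-site region of Gkn3 counts for all 3 gastrokine genes and the trefoil genes have no value. The lists were not compared by a test.

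The strongest regions of single genes were mostly higher in the AT2 and AT1 lists too. For AT2 the highest were 47.2 at Sftpb, 41.3 at Cxcl15 and 34.7 for Sftpc (nearest to Lgi3), and for AT1 38.5 for Akap5 (nearest to Mthfd1), 34.9 at Clic5 and 30.4 for Ager (nearest to Ppt2). The highest value of the 10 gastrointestinal genes, 16.1 in the Hnf4a window at Fitm2, was exceeded by 9 of the 10 AT2 genes and 8 of the 10 AT1 genes. Those below it were Slc34a2 (7.61), Pdpn (13.0) and Vegfa (13.4). Sftpa1 and Sftpd of the AT2 list share 1 strongest region (17.6), which counts for both genes here and in the median above. The thyroid list holds genes that NKX2-1 acts on in another organ. It had a region of 4 antibodies within 50 kb at 8 of 10 genes and within 10 kb at 3, with its strongest at Tg (20.3, inside the gene), Dio1 (18.1, 42.0 kb away) and Slc26a4 (16.6, 32.1 kb away). These counts were close to the 7 and 4 of the gastrointestinal genes.

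**Figure D4:**
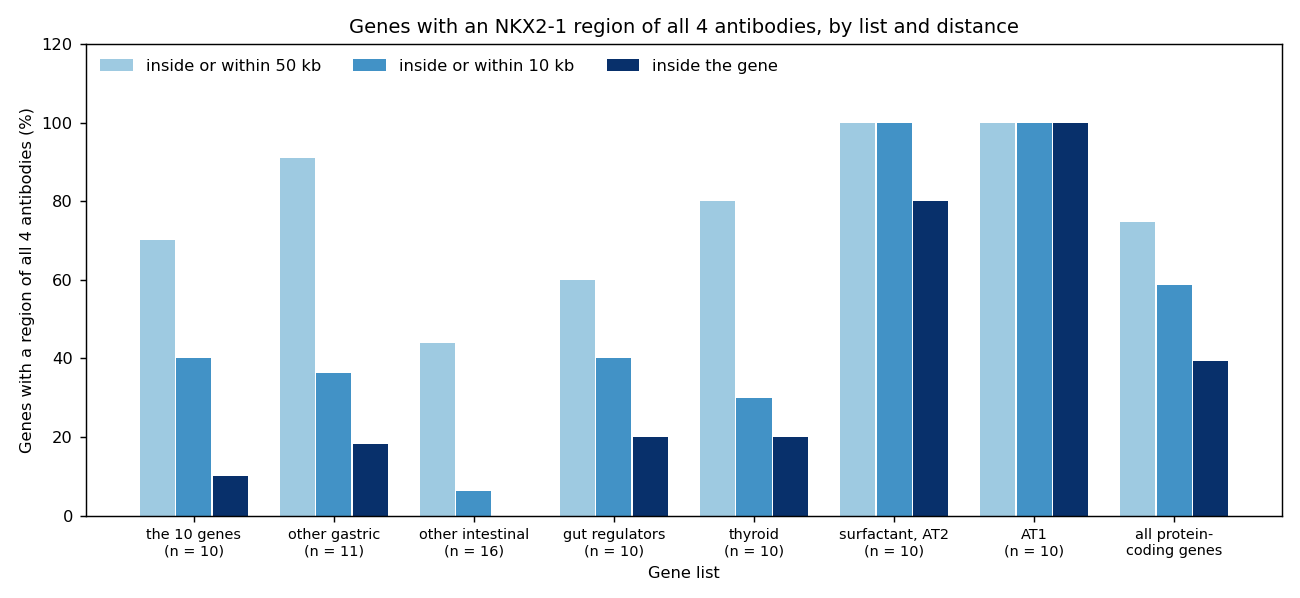
Share of the genes of each list (vertical axis, %) that have an NKX2-1 region of 4 antibodies inside or within 50 kb (light bars), inside or within 10 kb (middle bars) and inside the gene (dark bars), for the lists on the horizontal axis and for all 21627 protein-coding genes. The surfactant and AT1 lists reach 100% within 10 kb, the 10 gastrointestinal genes 40.0% and all genes 58.6%. The shares are not adjusted for gene length.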

How the data were processed

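The deposited peak tables of 4 NKX2-1 ChIP-seq libraries were used, and the input enters only through the authors' peak calls. The build was mm10, and the tools were Bowtie, SAMtools, MACS2, FastQC, Trimmomatic and deepTools, per the submitters' processing notes. Only the MACS version (2.1.2) is given in the sources used here. The authors called each antibody against the input at a q-value cutoff of 0.05, per the file headers, with 1 tag kept per position and the input scaled up. Per the file headers, each peak has a pileup signal at its summit in tags, a fold enrichment (a ratio over local background) and p and q-values as −log10. Fold and signal are the authors' values. A fold over a sparse input depends on that background, so tags are given beside it.

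Peaks overlapping by 1 bp were merged, and an antibody with several peaks in a region counts with its strongest. Genes were 21627 protein-coding genes of RefSeq GRCm38.p6 (chromosomes 1 to 19 and X), all 10 members found. The table holds gene ends only, so exons and introns were not told apart. Sequence was searched in RefSeq promoter windows alone (250 bases before to 50 after a start), where the planned search covered whole regions. Summit tags have exact Poisson intervals at 95%, for counting error only. Merging and counting were tested on simulated data. Python 3.11.15, numpy 2.4.6, pandas 2.3.3 and scipy 1.17.1 were used.

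The members and lists were chosen with earlier results of these data known. Named were the 10 genes, the genes that their regions lie in or nearest to, the 3 genes of each other list with the strongest region of 4 antibodies, and those of the wider list without a peak within 50 kb. A neighbour and a listed gene that this rule names are not reported here. Regions beyond 50 kb, the AT1 and AT2 genes with weaker regions, and the AT2 genes that share a region were named after their values were seen. Alternatives changed the window, the peak threshold, the overlap, the list length, the assignment to the nearest gene and the number of antibodies. Leaving out each antibody in turn and the comparison with genes of like length were added after the data were seen.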

Additional observations from a re-analysis of the deposited data

How the results depend on the processing

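The number of regions near the 10 genes followed the window and the assignment. It was 49 within 50 kb, 102 within 100 kb, 24 within 25 kb, 31 at a fold of at least 5, and 10 when a region counted only for its nearest gene. Regions of 4 antibodies numbered 24, 48 within 100 kb, 11 within 25 kb, and 4 by nearest gene. By nearest gene, 2 of the 10 genes kept a region of 4 antibodies within 50 kb rather than 7 (51.2% of all genes) and 2 within 10 kb rather than 4 (48.8%), as did 6 rather than 23 of the wider list and 3 rather than 8 of the thyroid list. A window of 5 kb in place of 10 kb left 2 of the 4 genes (53.8% of all genes). At a fold of at least 5 the 10 genes kept 7 within 50 kb, beside 63.6% of all genes. Within 10 kb they kept 4, beside 43.4%. They also kept 4 within 10 kb at a −log10 q of at least 5 (54.0% of all genes). With the 40000 peaks of highest fold of each list it was again 4 (54.8%). The share of the 10 genes within 10 kb was thus below that of all genes under each of these cutoffs, most narrowly at the fold cutoff. Within 10 kb the strongest region of Gkn1 fell to 3.66 and that of Lgals4 to 6.90, and Tff1, Tff2, Hnf4a and Ctse had none. Within 100 bp of the mean summit, 1 of the 2 words of the Gkn3 promoter was left, and the search could be narrowed in that promoter only. Over all results and alternatives run, 102 values stayed within the limit set for a like value (1.5 times for a count) and 15 did not. The 102 include the AT2 and AT1 lists, which stood at 10 of 10 genes in every setting, so the tally is not a measure of how stable the gastrointestinal counts were.

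No region has a replicate: differences between antibodies can be those of single libraries. The lowest pileup called was 12 to 13 tags, and why an antibody gave no peak at a region of the others was not tested. With Abcam133737 left out, 9 of the 10 genes had a region of the other 3 within 50 kb (76.3% of all genes), and 9 had one of at least 3 antibodies (77.7%). Tff1 and Tff2 came in there. No paired analysis was possible because each antibody has 1 library and the labels give no replicate numbers. Whole lung does not tell which cells were bound, and no expression data were used here.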
